A study of Xenopus laevis with 12 samples.

Results

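Collagen and extracellular matrix genes were examined in whole *Xenopus laevis* embryos at stage 25. A gene was taken as a member when its symbol, without the ending .L or .S, was that of a collagen chain, a laminin chain, a nidogen, a fibrillin, a fibulin, elastin, perlecan or fibronectin, and when it had at least 1.8 CPM (counts scaled to the total of the library) in at least 3 libraries. Of 87 rows with such symbols, 58 were members and 29 lay under this filter, out of 21731 genes past the filter and 42638 genes in the table. *X. laevis* carries many genes as a pair of related copies, called homeologs and marked .L and .S, and the 58 members comprised 32 .L and 26 .S genes of 37 symbols.

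The 12 libraries came from wild-type embryos, 3 from each of 4 groups, with 15 whole embryos pooled per library. The groups were untreated embryos reared in small groups, untreated embryos in large groups, and embryos in small or large groups exposed to 90 µM thioridazine, an antagonist of dopamine receptors, from stage 12.5 to stage 25. Small and large groups held 100 and 300 embryos by the paper's text. The study used these groups to ask whether group size alters gene expression with and without this teratogen.

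The extracellular matrix is the protein scaffold around cells. Fibrillar collagens form the cables of connective tissue, basement membranes are thin sheets of laminin, type IV collagen, nidogen and perlecan under epithelia and around muscle, and the notochord, the axial rod of the embryo, is wrapped in a sheath rich in type II collagen that resists the pressure of its vacuolated cells. Fibronectin fibrils guide cell movement during gastrulation and somite formation in *Xenopus*. The members are described in these classes, beginning with the libraries, since these differed from each other in ways the 4 groups do not describe.

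The labels number the libraries of each group 1 to 3, and libraries with the same number resembled each other across groups. Once the group mean of each gene was subtracted, the correlation was 0.282 to 0.769 over the 18 same-numbered pairs and -0.63 to 0.18 over differently numbered pairs. The second range includes pairs of the same group, for which the subtraction itself lowers the correlation. What the numbers stand for is not given in the sources used here, and the p-values therefore cover only the variation among these libraries, which may be technical. Total counts ranged from 3497196 to 7822347, and the members took 0.300% to 0.473% of the counts in the 4 libraries numbered 1 and 0.224% to 0.339% in the other 8. Markers of notochord, muscle, epidermis, nervous system, endoderm, neural crest and blood were all measured, as a whole embryo should hold, with 12 to 22 genes past the filter per list. In bulk samples such as these, fewer cells of a type and less RNA per cell cannot be told apart.

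The libraries numbered 1 were higher in many of the collagens. In the notochord sheath class, that of the thioridazine large group was close to the other numbers. A test of the replicate number, with the group in the model, passed for 35 of 58 members at an adjusted p under 0.05 (edgeR's quasi-likelihood F test, Benjamini-Hochberg adjustment over all genes), beside 39.7% of all genes tested. Of these, 34 were lower in both numbers 2 and 3 than in number 1, which was so for 20.3% of all genes, and 1, col12a1.L, was higher in both, beside 16.3% of all genes. Here and below, lower in both means that this F test passed and both fitted values lay below 0, and the single differences were not each tested in this count. The median log2 fold change against number 1 was -0.67 for number 2 and -0.63 for number 3 over the members, against -0.02 and -0.02 over all genes. In 23 members the 4 libraries numbered 1 all lay above the other 8, beside 12.6% of all genes, and in 0 members all below, beside 8.19%. Numbers 2 and 3 differed from each other in 1 member, col16a1.L, beside 2.44% of all genes.

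Part of these counts follows from the filter. For 11 members (col12a1.S, col14a1.S, col1a1.S, col3a1.L, col3a1.S, col4a5.S, col5a3.S, col6a1.S, col6a2.S, lamb2.S and nid1.L) the 8 libraries numbered 2 and 3 alone would not have passed it, so that the libraries numbered 1 had to be high. The remaining 47 members passed it on those 8 libraries alone, and 26 of them differed by replicate number, beside 38.5% of the 20552 genes that passed it in the same way. Of the 47, 25 were lower in both numbers 2 and 3, beside 18% of those genes. The 4 libraries numbered 1 lay above the other 8 in 14 of the 47, and the share of those genes with this split was not counted. In the other direction, the libraries numbered 1 alone would not have passed col12a1.L, which the filter kept only through numbers 2 and 3. For the 11 members and col12a1.L no p-value of replicate number is given below. Just inside the filter, nid1.L ranged from 0.303 to 2.07 CPM. Just outside it, col17a1.L, a collagen of epithelial anchoring, reached 2.83 CPM with 2 libraries at or above the minimum, and fbn2.L, a fibrillin gene, reached 2.72 CPM, also with 2.

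**Figure D1:**
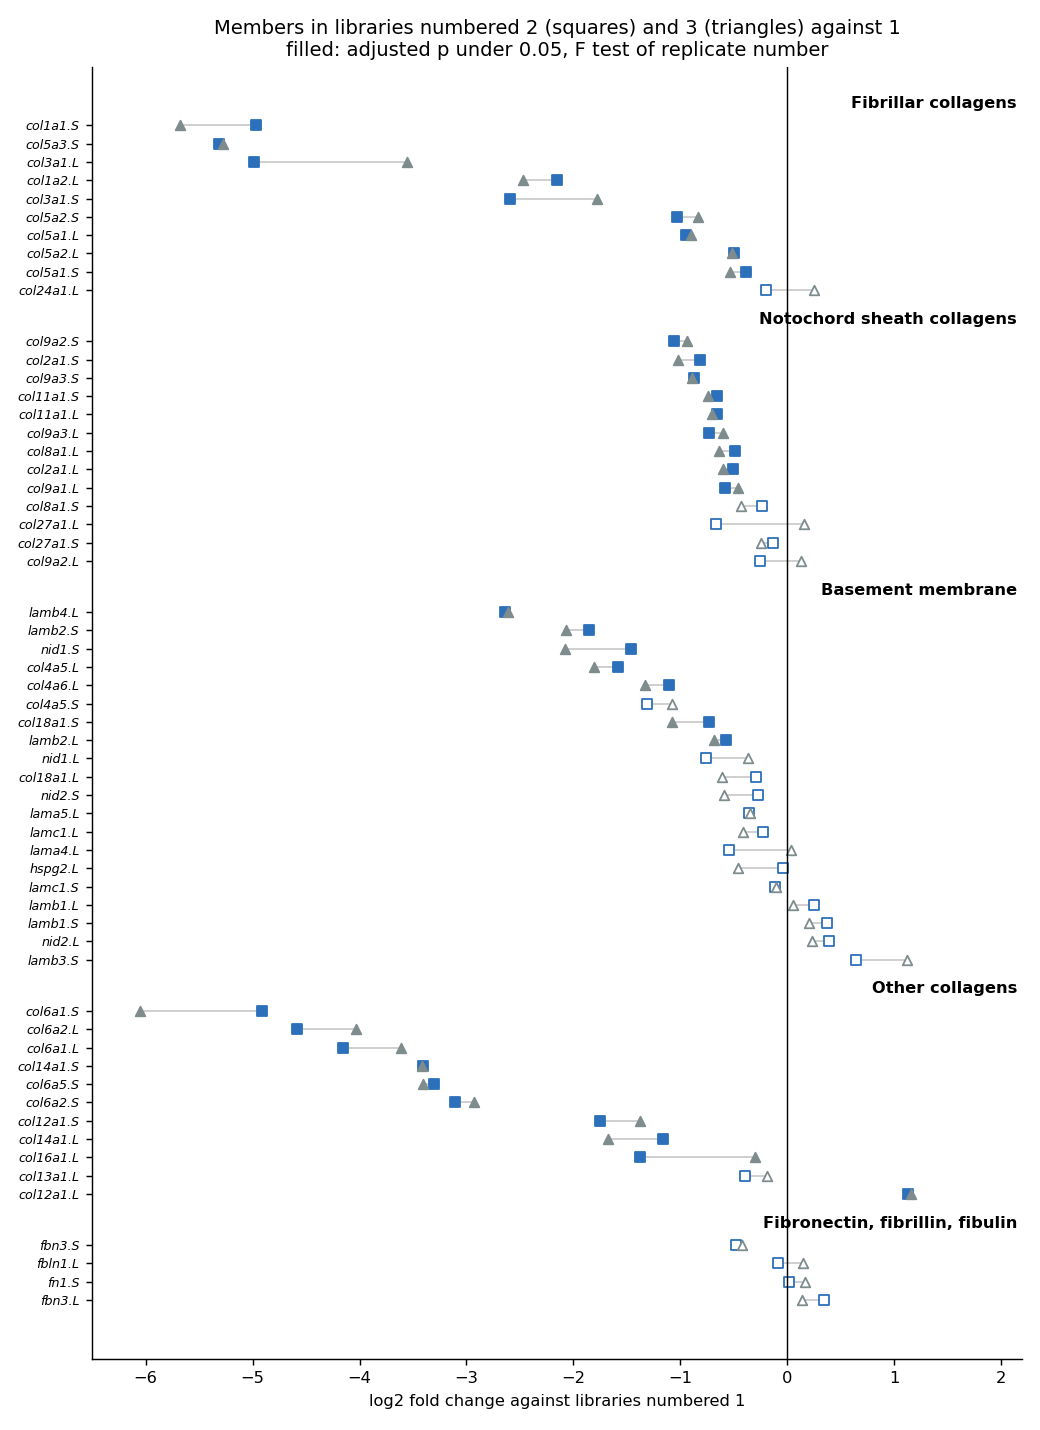
Log2 fold change of each of the 58 members in libraries numbered 2 (squares) and 3 (triangles) against libraries numbered 1, from the fit with group, arranged by class, with filled symbols where the F test of replicate number had an adjusted p under 0.05. Filled symbols lie left of 0 for 34 members and right of 0 for col12a1.L. Of the 34, 25 passed the filter on numbers 2 and 3 alone, and the filter kept the others only through number 1. It kept col12a1.L only through numbers 2 and 3. The fill of these symbols therefore follows in part from the filter. The position of members with almost no counts in numbers 2 and 3 depends on the prior count of the fit.

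Most fibrillar collagens were lower in numbers 2 and 3. Of 10 members 9 were lower in both, but 4 of them (col1a1.S, col3a1.L, col3a1.S and col5a3.S) had passed the filter only through number 1. Of the other 6 members 5 were lower in both, beside the 18% above, with medians of -0.72 and -0.69. Only col24a1.L, a minor fibrillar collagen, did not pass (8.38 to 16.5 CPM in numbers 2 and 3 and 10.2 to 15.9 in number 1). The summed level of the class was 226 to 339 CPM in the libraries numbered 1 and 115 to 162 CPM in the other 8. These did not overlap, but the sum includes the 4 members that the filter kept only through number 1.

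Type I collagen, the main fibrillar collagen of skin and bone, is built of the chains encoded by col1a1 and col1a2. In the order untreated small, untreated large, thioridazine small and thioridazine large, col1a1.S was at 28.5, 57.6, 38.2 and 30.4 CPM in the libraries numbered 1. It was at 0.867, 1.81, 1.13 and 1.07 CPM in those numbered 2 and at 0, 1.78, 0 and 0.909 CPM in those numbered 3. All 4 libraries numbered 1 therefore lay far above the rest, with 1054 counts in number 1 against 32 in number 2 and 13 in number 3. The fitted log2 fold change was -4.97 for number 2 and -5.68 for number 3, in a gene that the filter kept only through number 1.

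The partner chain moved the same way but was not as low. col1a2.L was at 20.5, 38.7, 28.3 and 26.9 CPM in the libraries numbered 1, in the same order of groups, at 9.83, 7.22, 4.27 and 5.64 CPM in number 2 and at 4.28, 9.28, 2.66 and 4.24 CPM in number 3. Its log2 fold changes were -2.15 (standard error 0.24) and -2.47 (0.26), with an adjusted p of 6.90e-06 by edgeR's test. Both chains thus had their highest library in the untreated large group numbered 1.

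Type III collagen, the fibrillar collagen of soft connective tissue, showed the same split at low levels. col3a1.L was at 2.78, 9.67, 3.70 and 2.34 CPM in the libraries numbered 1 and at 0 to 1.14 CPM in the other 8, which held 9 counts in all. col3a1.S was at 1.90, 3.84, 2.28 and 2.14 CPM in number 1 and at 0.134 to 0.892 CPM in the other 8. No library of the other numbers reached any library numbered 1 for either copy, but the filter had kept both only through number 1.

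Type V collagen, which starts and limits the width of type I fibrils, was split between its chains. col5a3.S was at 5.56, 16.6, 9.82 and 5.64 CPM in the libraries numbered 1 and at 0 to 0.753 CPM in the others, with 261 counts in number 1 against 6 in number 2 and 4 in number 3. The genes of the other chains were present in every library. col5a1.L was at 75.4, 68.7, 54.7 and 53.3 CPM in number 1 and at 27.7 to 37.6 CPM in the other 8, which did not overlap (log2 fold changes -0.95 and -0.90, standard errors 0.14 and 0.14). col5a2.L, the fibrillar member with the highest mean CPM, was at 80.0, 75.9, 68.6 and 57.4 CPM in number 1 and at 38.0 to 62.3 CPM in the others, which overlapped (log2 fold changes -0.50 and -0.52, standard errors 0.16 and 0.16, adjusted p = 0.0268 by edgeR's test). Without the untreated small library numbered 1, col5a2.L no longer passed (adjusted p = 0.0943).

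**Figure D2:**
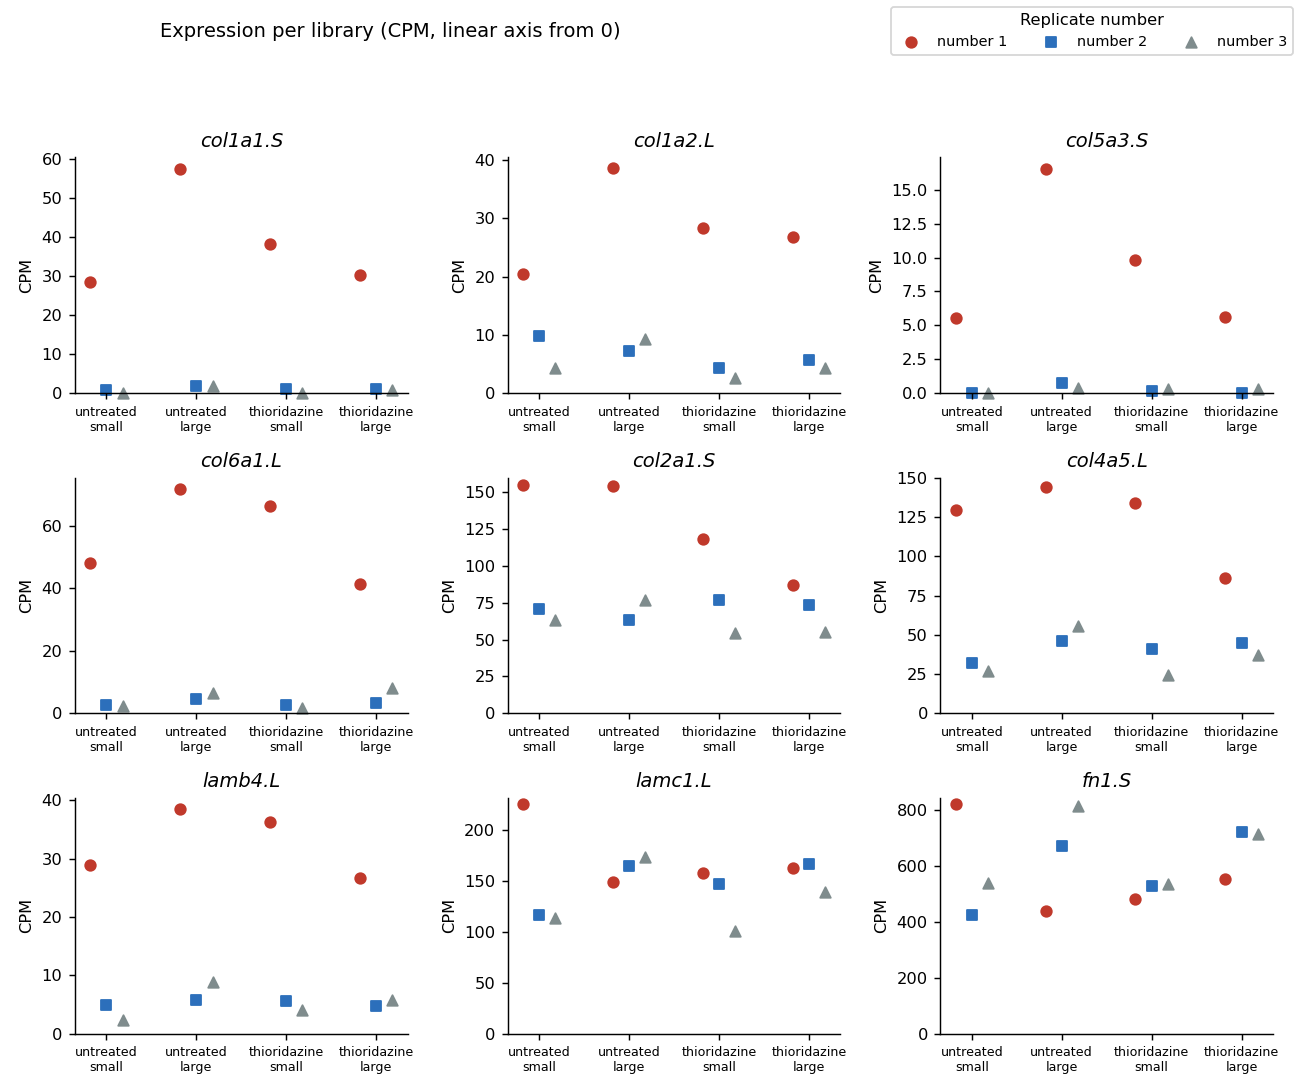
Expression of 9 members per library in CPM on linear axes from 0, by group, with the colour and shape of a point giving the replicate number of its library. For col1a1.S the libraries numbered 1 lie at 28.5 to 57.6 CPM and all others at 1.81 CPM or less, while for fn1.S and lamc1.L the libraries of the 3 numbers are interleaved.

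The notochord sheath class held chains of the cartilage and notochord collagens II, IX and XI, the short-chain collagen gene col8a1, needed for notochord shape in zebrafish, and col27a1, active in the zebrafish notochord. Of its 13 members 9 were lower in both numbers 2 and 3, beside 18% of the genes that passed the filter on those alone. None was higher, beside 16.3% of all genes, and the class medians were -0.66 and -0.60. These differences were smaller than those of the type VI collagen genes col6a1.L, col6a2.L and col6a5.S, which passed the filter without number 1. In 1 member, col2a1.S, the libraries numbered 1 lay above all others, beside 12.6% of all genes. All 13 members passed the filter on the libraries numbered 2 and 3 alone.

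Type II collagen is the main collagen of the sheath. col2a1.L was at 243.6, 221, 181 and 139 CPM in the libraries numbered 1, at 110.4, 140.4, 135 and 158 CPM in number 2 and at 127, 152, 119 and 117 CPM in number 3. Number 1 was highest of the 3 in every group but thioridazine large, where number 2 was (log2 fold changes -0.51 and -0.60, standard errors 0.17 and 0.17, adjusted p = 0.0198 by edgeR's test). Without the untreated small library numbered 1 it no longer passed (adjusted p = 0.0602). Its homeolog col2a1.S was at 155, 154, 118 and 86.6 CPM in number 1 and at 54.6 to 76.7 CPM in the other 8, so that these did not overlap (log2 fold changes -0.81 and -1.02, standard errors 0.16 and 0.16, adjusted p = 4.62e-04).

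The partners of type II collagen in its fibrils behaved alike in most chains. col11a1.L, a chain of type XI collagen, was at 85.9, 97.9, 70.6 and 46.9 CPM in the libraries numbered 1 and at 40.9 to 50.2 CPM in the others (log2 fold changes -0.66 and -0.71, standard errors 0.15 and 0.15, adjusted p = 0.00285 by edgeR's test). Of 5 genes of type IX collagen, which sits on the fibril surface, col9a1.L, col9a2.S, col9a3.L and col9a3.S were lower in both numbers, with log2 fold changes from -1.06 to -0.46, and col9a2.L did not pass (-0.26 and 0.13). col8a1.L passed (-0.48 and -0.64), col8a1.S did not (adjusted p = 0.0549), nor did both copies of col27a1. In the thioridazine large group, the library numbered 1 was close to the other numbers: the summed level of the class was 984 CPM in the highest library numbered 1 and 553 CPM in that of the thioridazine large group, against 461 to 572 CPM in numbers 2 and 3.

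Basement membrane genes were divided. Of 20 members 7 were lower in both numbers 2 and 3 and none higher, a share of 35.0% beside the 20.3% of all genes. Of the 17 that passed the filter on numbers 2 and 3 alone 6 were lower in both, beside 18% of such genes. Their medians were -0.29 and -0.46. The members that fell were col4a5.L and col4a6.L, which encode chains of type IV collagen, col18a1.S, lamb2.L and lamb2.S, lamb4.L and nid1.S.

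lamb4.L, which encodes a laminin β chain, showed the widest gap of this class. It was at 29.0, 38.5, 36.3 and 26.7 CPM in the libraries numbered 1, at 4.91, 5.72, 5.66 and 4.83 CPM in number 2 and at 2.29, 8.92, 4.13 and 5.76 CPM in number 3. The lowest library numbered 1 was thus well above the highest of the other 8 (log2 fold changes -2.64 and -2.61, standard errors 0.21 and 0.22, adjusted p = 4.95e-07 by edgeR's test). lamb1.L, the next protein-coding gene beside it in the RefSeq annotation and the gene of a widely used β chain, had values of 0.25 (standard error 0.19) and 0.05 (0.20).

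Type IV collagen is the network former of basement membranes. col4a5.L was at 129, 144, 134 and 86.4 CPM in the libraries numbered 1, at 32.4, 45.9, 40.9 and 45.0 CPM in number 2 and at 26.9, 55.7, 24.2 and 37.3 CPM in number 3, with no overlap (log2 fold changes -1.59 and -1.81, standard errors 0.20 and 0.20, adjusted p = 1.32e-05 by edgeR's test). col4a6.L, its neighbour in the genome, was at 40.1 to 68.2 CPM in number 1 and at 15.0 to 31.9 CPM in the others. Of the genes of the chains that are the common type IV collagen of most tissues in mammals, col4a1.L, col4a2.L and col4a2.S lay under the filter, with at most 10 counts in any library.

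Most genes of the common laminin and nidogen chains did not pass. nid2.L, a nidogen that links laminin to type IV collagen and the member of the class with the highest mean CPM, was at 192, 107, 138 and 116 CPM in number 1 and at 138 to 211 CPM in the others (log2 values 0.39 and 0.24, adjusted p = 0.233 by edgeR's test, and 0.0118 without the untreated small library numbered 1). col18a1.L, the gene of a basement membrane collagen that is a source of endostatin, was at 235, 182, 192 and 151 CPM in number 1 and at 91.5 to 180.2 CPM in the others (-0.29 and -0.61, adjusted p = 0.0719, and 0.0377 by edgeR's test without the thioridazine large library numbered 1). For lama5.L, lamb1.L, lamb1.S, lamc1.L and lamc1.S the fitted values lay between -0.42 and 0.37, and those of hspg2.L, the gene of perlecan, were -0.04 and -0.46. Their libraries numbered 1 overlapped the other 8, with untreated small number 1 the highest library for lama5.L, lamb1.L, lamc1.L, lamc1.S and hspg2.L.

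The other collagens held the largest differences. Of 11 members 9 were lower in both numbers 2 and 3, but 4 of them (col12a1.S, col14a1.S, col6a1.S and col6a2.S) had passed the filter only through number 1. Of the other 7 members 5 were lower in both, beside the 18% of genes that passed in the same way, with medians of -1.38 and -1.68. The summed level of all 11 was 182 to 282 CPM in the libraries numbered 1 and 35.4 to 62.4 CPM in the other 8. The ratio of the mean summed levels of number 1 over the others was 5.05 for this class and 2.05 for the fibrillar collagens. It was 1.52 for the notochord sheath, 1.25 for the basement membrane and 0.977 for the fibronectin, fibrillin and fibulin genes. The sums of this class and of the fibrillar collagens each include 4 members that the filter kept only through number 1. That of the basement membrane includes 3, so these ratios partly follow from the filter.

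Type VI collagen forms beaded microfibrils close to cells, with much of it around muscle and connective tissue. col6a1.L was at 48.1, 71.8, 66.3 and 41.3 CPM in the libraries numbered 1, at 2.60, 4.52, 2.64 and 3.22 CPM in number 2 and at 2.29, 6.60, 1.77 and 8.18 CPM in number 3 (log2 fold changes -4.15 and -3.61, standard errors 0.29 and 0.29, adjusted p = 2.98e-07 by edgeR's test). col6a2.L was at 29.7, 49.5, 44.7 and 29.0 CPM in number 1 and at 1.05 to 3.33 CPM in the others (log2 fold changes -4.58 and -4.03, standard errors 0.27 and 0.27, adjusted p = 4.90e-08). The same split was seen in col6a5.S, the member of this class with the highest mean CPM, at 56.3, 62.1, 71.2 and 51.4 CPM in number 1 and at 2.07 to 8.74 CPM in the others (log2 fold changes -3.30 and -3.40, standard errors 0.26 and 0.27).

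The S copies of type VI collagen were lower in level and split alike. col6a1.S held 148 counts in the libraries numbered 1, 4 in number 2 and 1 in number 3, and was at 0 in 4 of these 8 libraries. col6a2.S was at 3.89 to 9.93 CPM in number 1 and at 0.377 to 1.34 CPM in the others. The 4 libraries numbered 1 lay above every other library in col6a1.L, col6a2.L and col6a5.S, beside 12.6% of all genes. They did so in col6a1.S and col6a2.S as well, which the filter had kept only through number 1.

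Collagens XII and XIV sit on the surface of type I fibrils. col14a1.L was at 40.8, 39.2, 52.4 and 28.8 CPM in the libraries numbered 1, at 13.3, 24.1, 19.1 and 17.2 CPM in number 2 and at 6.57, 21.4, 6.20 and 17.6 CPM in number 3 (log2 fold changes -1.17 and -1.68, standard errors 0.29 and 0.32, adjusted p = 0.00265 by edgeR's test). The copies of col12a1 differed in direction. col12a1.S was at 1.95 to 2.42 CPM in number 1 and 0 to 1.18 CPM in the others. col12a1.L was at 0.779 to 1.76 CPM in number 1 and 1.73 to 2.95 CPM in the others (log2 fold changes 1.13 and 1.16). The filter kept each copy only through the numbers in which it was high. Both rest on few counts, 92 and 133 over all libraries. col16a1.L, of the same family as XII and XIV, was lower in number 2 (-1.38) than in numbers 1 and 3 (-0.30 for number 3 against 1), and col13a1.L, a transmembrane collagen of nerve-muscle contacts, did not pass.

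Fibronectin, fibrillin and fibulin genes did not pass the test of replicate number in any of 4 members, beside 39.7% of all genes that passed. fn1.S, the member with the highest counts, was at 824, 441, 481 and 553 CPM in the libraries numbered 1, at 427, 671, 529 and 721 CPM in number 2 and at 539.6, 816, 538 and 715 CPM in number 3 (log2 values 0.02 and 0.17, standard errors 0.21 and 0.21, adjusted p = 0.745 by edgeR's test). Number 1 was the highest library in untreated small groups and the lowest in the other 3 groups, and without that highest library fn1.S passed as higher in numbers 2 and 3 (mean log2 difference 0.42, adjusted p = 0.0276). fbln1.L, a fibulin of basement membranes and elastic fibres, was at 108 to 151 CPM in number 1 and 114 to 153 CPM in the others. fbn3.S, a fibrillin of microfibrils, was at 122 to 225 CPM and 90.2 to 141 CPM (log2 values -0.48 and -0.42, adjusted p = 0.114).

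**Figure D3:**
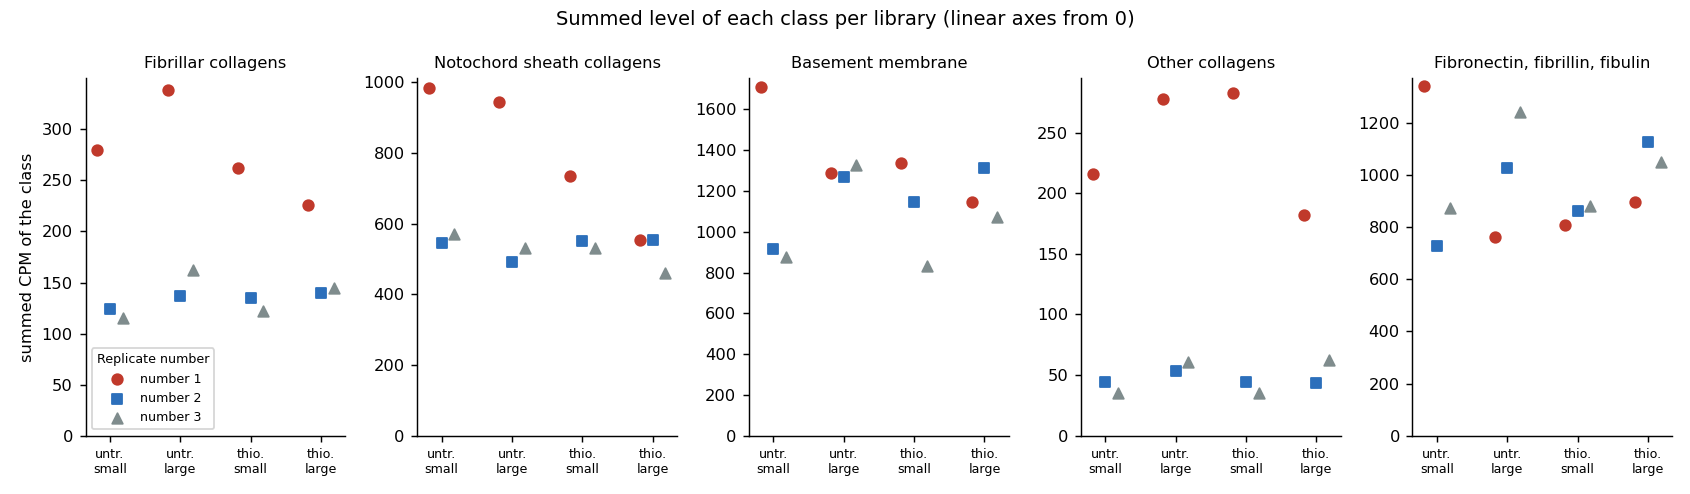
Summed CPM of the members of each class in each of the 12 libraries, by group, on linear axes from 0, with colour and shape giving the replicate number. The libraries numbered 1 lie at 182 to 282 CPM and the others at 35.4 to 62.4 CPM for the other collagens. The numbers overlap for the basement membrane class and for fibronectin, fibrillin and fibulin. Sums of the fibrillar, basement membrane and other collagen classes include members that the filter kept only through number 1.

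Genes that process collagen or bind matrix were counted from lists, beside the same shares, 20.3% of all genes lower in both numbers and 16.3% higher. These lists and the tissue lists below were not divided by whether a gene passed the filter without number 1. Of 51 collagen processing genes past the filter, which include prolyl and lysyl hydroxylases, chaperones and lysyl oxidases, 15 (29.4%) were lower in both numbers 2 and 3 and 6 (11.8%) higher, with medians of -0.21 and -0.18. sparc.S, which encodes a collagen-binding protein of the matrix, was at 230.1 to 276 CPM in the libraries numbered 1 and 103 to 138 CPM in the others (log2 fold changes -1.05 and -1.12). adamts14.L, a procollagen protease gene, was instead high in number 3, with log2 values of -0.23 for number 2 and 3.40 for number 3. Of 41 integrin and other matrix receptor genes 15 (36.6%) were lower in both and 1 (2.44%) higher, with medians of -0.26 and -0.35. Among them were itga7.L, the gene of a laminin receptor of muscle (-0.68 and -0.86), and sdc2.S, a syndecan gene (-0.12 and -0.81).

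Markers of several tissues moved with the replicate number as well, given here beside the same 20.3% and 16.3% of all genes. Of 22 skeletal muscle markers 12 (54.5%) were lower in both numbers 2 and 3 and 4 (18.2%) higher, and their summed level was 4940 to 6376 CPM in the libraries numbered 1 and 3130 to 4441 CPM in the others. tnnc2.L, a troponin of contracting muscle, was lower (-1.66 and -1.37) and myf5.S, a factor of muscle precursors, higher (1.26 and 1.46). Of 21 neural markers 8 (38.1%) were lower and 0 higher, with sums of 744 to 1185 CPM and 409 to 893 CPM. Both copies of stmn2, a gene of growing axons, were lower (-2.99 and -2.81 for stmn2.L, -2.34 and -2.32 for stmn2.S). Of 12 blood markers 5 (41.7%) were lower and 0 higher, led by mpo.L of myeloid cells (-2.18 and -2.75) and tal1.S (-0.63 and -1.28), with sums of 314 to 439 CPM and 145 to 262 CPM.

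Other tissue lists were mixed. Of 17 notochord markers 3 (17.6%) were lower in both and 6 (35.3%) higher, with sums of 587 to 794 CPM in number 1 and 641 to 742 CPM in the others. sox9.S, a regulator of type II collagen, was lower (-0.87 and -0.87), as was hapln3.S (-0.90 and -1.10). Their homeologs sox9.L (0.11 and -0.26) and hapln3.L (0.20 and -0.11) did not pass. Higher were both copies of tbxt, the gene of the notochord factor Brachyury (1.36 and 1.03 for tbxt.L), both copies of foxa4 (1.04 and 1.64 for foxa4.L) and both copies of emilin3 (1.08 and 0.93 for emilin3.S). Of 17 epidermis markers 2 (11.8%) were lower and 2 (11.8%) higher (krt19.L -0.62 and -0.38, and epcam.S 0.34 and 0.55), with sums of 3323 to 4525 CPM and 3043 to 4524 CPM. Of 16 neural crest markers 3 (18.8%) were lower and 3 (18.8%) higher. mitf.L (-3.15 and -1.99) and tfap2e.L (-0.45 and -1.29) were among the lower. The filter kept mitf.L only through number 1, where it was at 1.85 to 2.72 CPM, against 0 to 1.07 CPM in the others. It kept mitf.S, also lower, only through number 1 as well. The higher were foxd3.L (0.79 and 0.32), msx1.L (0.24 and 0.56) and tfap2e.S (0.78 and 0.32). The sums of this list were 436 to 512 CPM in number 1 and 478 to 577 CPM in the others. Of 17 endoderm markers 1 (5.88%) was lower and 7 (41.2%) higher, with sums of 520 to 749 CPM and 547 to 1067 CPM, and sox17a.L, the gene of an endoderm transcription factor, had log2 values of 0.95 and 1.67. Among marker genes past the filter, 2 of the neural crest list were at 0 in a library and none of the other 6 lists. The part of these tissues in the differences of the collagens was not tested.

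Neighbouring collagen genes past the filter were lower in numbers 2 and 3, by unlike amounts. In the order of protein-coding genes of the RefSeq annotation of *X. laevis*, col6a1 and col6a2 are adjacent on both subgenomes, as are col3a1 and col5a2, and col4a6.L lies beside col4a5.L. Both genes of the type VI pairs and of the type IV pair were lower in numbers 2 and 3. col3a1.L held 130 counts in number 1, 3 in number 2 and 6 in number 3, while its neighbour col5a2.L had log2 fold changes of -0.50 and -0.52. col3a1.S had -2.59 and -1.78 and its neighbour col5a2.S -1.03 and -0.84. The filter had kept both copies of col3a1, col6a1.S and col6a2.S only through number 1.

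The homeologs of a pair took unequal shares of its counts. These shares are estimates, since reads that fit both copies were divided between them by RSEM, and they are not corrected for gene length. Both copies passed the filter in 21 pairs. By replicate number both copies differed in 11 of them, 1 copy in 5 and 0 in 5, beside 39.7% of all genes taken singly. Of the 11, col3a1, col6a1, col6a2, col12a1, col14a1 and lamb2 held at least 1 copy that the filter had kept only through number 1. The copies of col12a1 differed in opposite directions, each kept by the filter only through the numbers in which it was high. The .L copy held 97.8% of the counts of col1a2 and 4.68% of those of col1a1, so the chains of type I collagen were counted mostly from opposite subgenomes. It held 96.8% in col4a5 and 1.21% in col6a5. In col2a1 it held 63.4%, ranging from 58.9% to 69.0% over the 12 libraries, in col8a1 54.8% and in fbn3 45.7% (36.8% to 53.8%). The share of col9a2 ranged most among pairs with at least 30 counts in every library, from 51.3% to 81.3%.

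**Figure D4:**
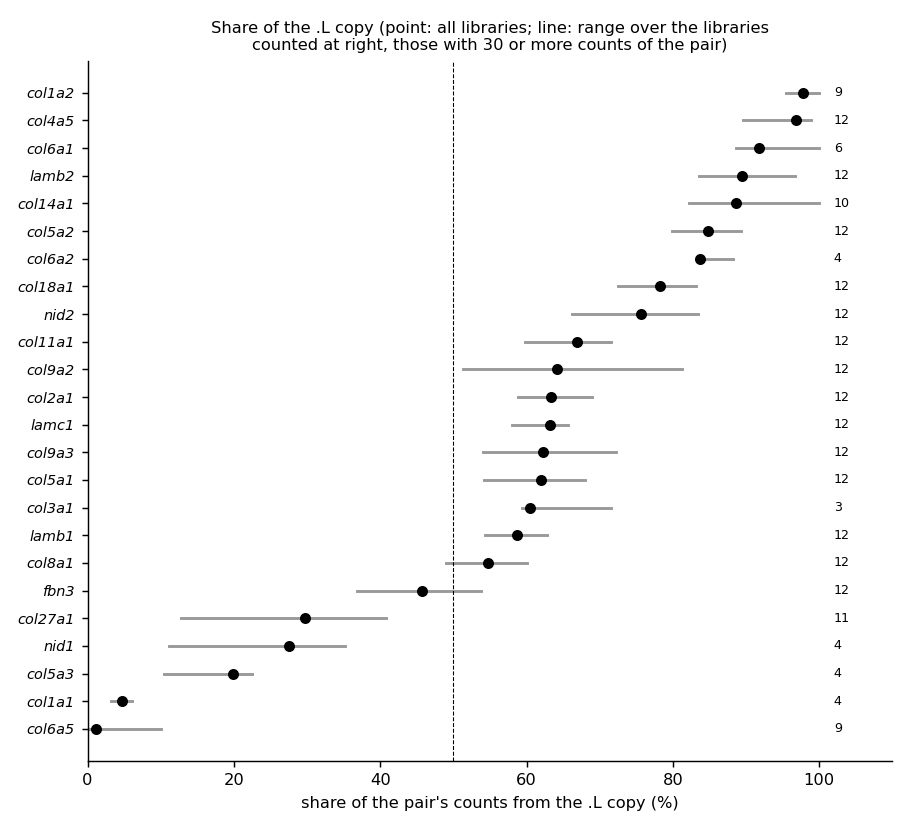
Share of the .L copy in the counts of each homeolog pair that had at least 30 counts in 3 or more libraries, in percent, as a point over all libraries and a line for the range over such libraries, whose number stands at the right. The shares run from 1.21% for col6a5 to 97.8% for col1a2, with fbn3 at 45.7% and col8a1 at 54.8%.

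No member passed the threshold for a difference between the study's groups when all 12 libraries were fitted, and almost none of all genes did. In the fit of 4 group means to all 12 libraries, 0 of 58 members passed an adjusted p under 0.05 in any of 7 comparisons by edgeR's quasi-likelihood test. Of all genes, 0% passed for group size in untreated embryos, 0% for group size under thioridazine, 0.0092% for thioridazine in small groups, 0.0092% in large groups, 0.0874% for thioridazine averaged over group sizes, 0% for group size averaged over treatments and 0% for the interaction. At an unadjusted p under 0.05 there were 1, 1, 1, 0, 0, 1 and 1 members in this order, beside 1.76%, 0.727%, 1.01%, 1.93%, 1.69%, 1.35% and 0.989% of all genes. DESeq2 also called 0 members in all 7, and so did edgeR with the replicate number as a block, in which 0%, 0%, 0.179%, 0.258%, 0.433%, 0% and 0% of all genes passed. With the block 9, 2, 3, 6, 2, 3 and 6 members had an unadjusted p under 0.05, beside 7.59%, 2.98%, 3.4%, 7.54%, 4.97%, 5.16% and 5.41% of all genes. For each comparison the 3 members of smallest p above and below 0 in the fit without the block are given as values below. Every adjusted p without the block was 1 by edgeR's test. The standard errors of that fit include the differences between replicate numbers, and the block ranks members otherwise. Counts of members above or below 0, and medians over all 58, include the 11 members that the filter kept only through number 1. The share of all genes above or below 0 was not counted.

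Between untreated large and small groups, 39 of 58 members lay above 0, with a median log2 value of 0.09 (all genes 0.02). In fibrillar collagens 9 of 10 lay above 0, with a median of 0.57, and in the notochord sheath 3 of 13, with a median of -0.28. Members above 0 were col5a2.S (0.66, standard error 0.44), nid1.S (0.73, 0.82) and col5a2.L (0.27, 0.28). Below 0 were lamb3.S, the gene of a laminin chain of skin (-1.35, 0.59), col27a1.S (-0.45, 0.25) and col8a1.S (-0.29, 0.22). The fibrillar median was 0.25 in the fit with the block that leaves out number 1. With the block and all libraries, lamb3.S had -1.53 (standard error 0.41, adjusted p = 0.435 by edgeR's test). In that fit col5a3.S had 1.76 (0.45, adjusted p = 0.414) and col1a1.S 1.18 (0.34, adjusted p = 0.435). The filter had kept col5a3.S and col1a1.S only through number 1.

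Under thioridazine, large against small groups gave 23 of 58 members above 0 and a median of -0.14 (all genes -0.01). Over the 47 members that passed the filter on numbers 2 and 3 alone, 23 lay above 0 and the median was -0.01. fn1.S had 0.36 (standard error 0.27), col27a1.S 0.37 (0.25) and col13a1.L 0.31 (0.31). Below 0 were nid1.L (-1.59, 0.62), col8a1.S (-0.40, 0.22) and col9a2.L (-0.31, 0.23). Averaged over treatments, 35 of 58 members lay above 0, and the members with the smallest p were fn1.S (0.23, 0.19), nid1.S (0.64, 0.59), col5a2.L (0.19, 0.20), col8a1.S (-0.34, 0.15), nid1.L (-0.86, 0.42) and col9a2.L (-0.30, 0.17). col8a1.S was at 96.4, 66.5 and 69.7 CPM in untreated small groups (libraries 1, 2 and 3), 81.9, 59.9 and 48.9 in untreated large groups, 73.0, 67.9 and 59.3 in thioridazine small groups and 50.2, 56.5 and 44.9 in thioridazine large groups. It was lower in the large group for each number under both treatments, and the groups overlapped.

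Among the alternatives run, group size gave calls of members only when the libraries numbered 1 were left out. With the block and the 8 libraries numbered 2 and 3, 5 members passed between untreated large and small groups, beside 4.60% of all genes. fn1.S (log2 fold change 0.61), col18a1.L (0.71), col4a5.L (0.78) and lamb1.L (0.61) were higher in large groups, and col9a2.S was lower (-1.16, adjusted p = 0.0192 by edgeR's test). For fn1.S the values of 427 and 539.6 CPM in small groups and 671 and 816 CPM in large groups did not overlap, while in the libraries numbered 1 it was at 824 CPM in the small and 441 CPM in the large group. col9a2.S was at 22.0 and 21.7 CPM in small and 9.93 and 9.63 CPM in large groups, and at 37.2 and 47.2 CPM in the libraries numbered 1. In the libraries numbered 1, col18a1.L was at 235 CPM in the small and 182 CPM in the large group, lamb1.L at 131 and 80.1 CPM, and col4a5.L at 129 and 144 CPM. The direction was thus opposite there for 4 of the 5 members and the same for col4a5.L. Each call rests on 2 libraries against 2.

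Averaged over treatments in the same 8 libraries, 7 members passed, beside 4.74% of all genes: fn1.S (0.53), col5a2.L (0.45), col18a1.L (0.49), col4a5.L (0.56), lamb1.L (0.44) and lamb1.S (0.46) were higher in large groups and col9a2.S was lower (-0.71). In the other 5 comparisons 0 members passed there, beside 0.0046% of all genes for group size under thioridazine, 0.189% for thioridazine in small groups, 0.225% in large groups, 0.331% on average and 0.0092% for the interaction.

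Thioridazine against untreated, averaged over group sizes, placed 54 of 58 members below 0, with a median of -0.18 against -0.01 over all genes, and none of them passed. Of the 47 members that passed the filter on numbers 2 and 3 alone, 43 lay below 0, with a median of -0.12. The share of all genes below 0 was not counted. All 11 of the other collagens and 19 of 20 basement membrane members lay below 0. The members with the smallest p below 0 were col8a1.S (-0.27, standard error 0.15), col9a3.L (-0.36, 0.24) and col9a2.L (-0.23, 0.17). Above 0 were lama4.L, the gene of a laminin chain of blood vessels (0.34, 0.38), col27a1.L (0.29, 0.37) and col24a1.L (0.06, 0.20). Without the libraries numbered 1, with the block, 27 of 58 lay above 0 and the median was -0.01.

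Within single replicate numbers the members' median difference between thioridazine and untreated libraries, as log2(CPM + 1), was -0.27 in number 1, 0.11 in number 2 and -0.12 in number 3. In the notochord sheath it was -0.58, 0.07 and -0.11. Both medians were thus lowest in number 1, negative also in number 3 and positive in number 2. In number 1 col2a1.S was at 155 and 154 CPM untreated and at 118 and 86.6 CPM with thioridazine. It was at 70.5 and 63.2 CPM untreated and 76.6 and 73.7 CPM treated in number 2. In number 3 it was at 63.4 and 76.7 CPM untreated and 54.6 and 55.2 CPM treated.

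**Figure D5:**
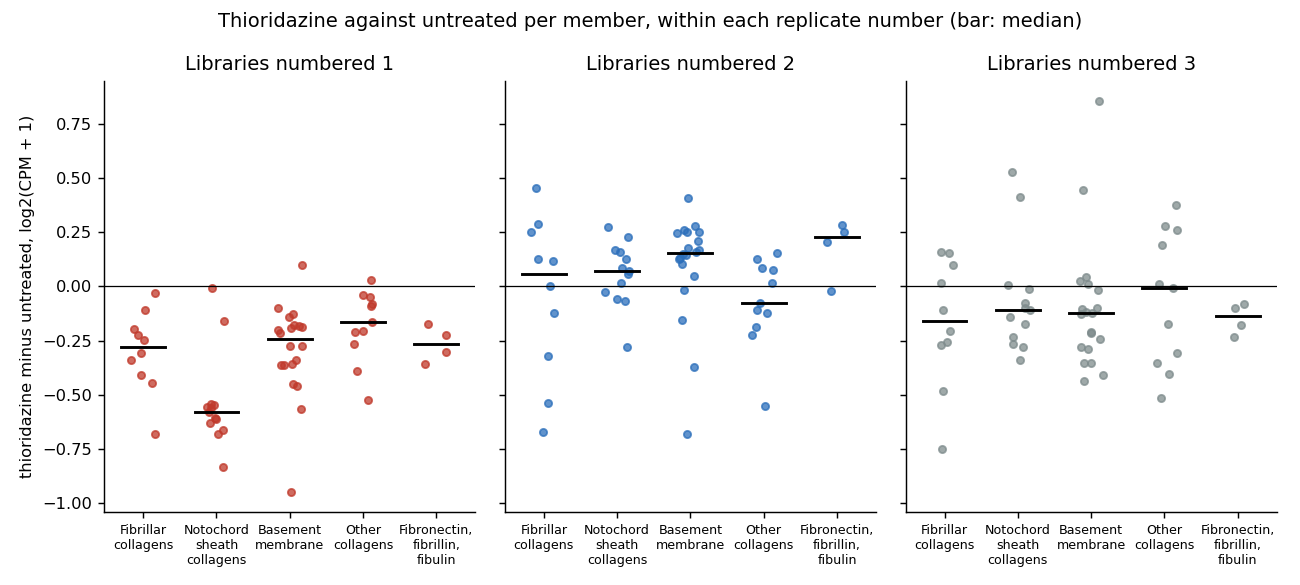
Difference between thioridazine-treated and untreated libraries of each member, as log2(CPM + 1) averaged over small and large groups, within libraries numbered 1, 2 and 3, with a bar at the median of each class. The medians of the notochord sheath class are -0.58, 0.07 and -0.11.

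By group size, thioridazine gave a median of -0.11 in small and -0.30 in large groups, in comparisons that share no library, with 36 and 50 of 58 members below 0. Among the 47 members that passed the filter on numbers 2 and 3 alone, 33 and 39 lay below 0, with medians of -0.15 and -0.21. In small groups the members with the smallest p were col5a2.S (0.50, standard error 0.44), lama4.L (0.55, 0.54), col24a1.L (0.28, 0.29), col27a1.S (-0.58, 0.25), lamb3.S (-0.84, 0.58) and col5a1.S (-0.33, 0.28). In large groups they were lamb3.S (0.73, 0.59), col27a1.S (0.24, 0.25), col27a1.L (0.40, 0.51), nid1.L (-1.26, 0.62), col11a1.L (-0.55, 0.32) and col8a1.S (-0.33, 0.22). All 10 fibrillar members lay below 0 in large groups, with a median of -0.52. This median was -0.14 without the libraries numbered 1, and 3 of 10 then lay above 0.

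For the interaction, the difference between the group-size responses with and without thioridazine, the median was -0.17 over the members and -0.76 over the fibrillar collagens, the latter -0.25 without the libraries numbered 1. Over the 47 members that passed the filter on numbers 2 and 3 alone, the median was -0.03. The members with the smallest p were col27a1.S (0.82, standard error 0.35), lamb3.S (1.57, 0.83), col13a1.L (0.39, 0.43), nid1.L (-1.45, 0.84), col5a2.S (-0.96, 0.62) and col24a1.L (-0.43, 0.40). col27a1.S was at 8.78, 7.23 and 8.57 CPM in untreated small groups, 6.62, 6.17 and 5.17 in untreated large groups, 6.83, 5.28 and 4.13 in thioridazine small groups and 6.62, 7.65 and 6.97 in thioridazine large groups. Its untreated small libraries lay above those of untreated large groups and of thioridazine small groups, with an adjusted p of 1 in each comparison by edgeR's test.

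The 29 rows under the filter were rows of low count. The highest count in any library was 35, for col5a3.L in untreated large number 1, where col1a1.L also had its highest, 28. col5a3.L held 60 counts in the libraries numbered 1 and 7 in the other 8, and col1a1.L held 52 and 2. fbn2.S had a mean of 1.28 CPM in the libraries numbered 1 and 0.861 CPM in the others, fbn1.L had 0.496 and 0.628 CPM, and col10a1.S, a gene of the collagen of hypertrophic cartilage, was at 0 in all 12.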

How the data were processed

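Whole embryos were sequenced as single-end reads after depletion of ribosomal RNA with a stranded kit. Trimming by fastp, alignment to rRNA (Bowtie2) and to the genome (STAR) were done by the authors, who deposited RSEM expected counts per gene, in which a read fitting several genes is divided (25.7% of values were not whole). The tools in the submitters' processing notes (RSEM, STAR, Bowtie2, limma) carry no version. For the genome, no build is given in the sources used here. Log2 CPM that the authors deposited as well (filter, TMM, voom) for 21720 genes, all 58 members included, served as an alternative.

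After rounding of the expected counts, genes reaching 1.8 CPM in 3 or more libraries were kept. edgeR 4.0.16 in R 4.3.3 supplied TMM factors and the robust quasi-likelihood test, with Benjamini-Hochberg adjustment over 21731 genes and a threshold of 0.05. The group comparisons used 1 fit of 4 group means, and the replicate number was tested with the group in the model. CPM are TMM-scaled. Standard errors are the fold change over the root of F. The scripts were tested on simulated data. Alternatives were RLE factors, no filter, the replicate block, DESeq2 1.42.0, limma 3.58.1 (with sva 3.50.0) and leaving out libraries. DESeq2 with the block was added after seeing the data. All 87 rows matched a RefSeq symbol (Xenopus_laevis_v10.1), used for names and gene order only.

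Members and lists were chosen with earlier results of these data known. Members were named by rule: in each class the 2 with the highest mean CPM and the 2 with the smallest p for replicate number, in each group comparison the 3 of smallest p above and below 0, and of the other lists the 2 with the smallest p, of which 1 endoderm marker is not reported here. Other genes given with values were chosen after these were seen. Replicate numbers, which recur across groups in the labels, were taken to pair the samples, since all 18 same-numbered pairs correlated above 0.1. No library duplicated another (lowest chi-square per gene within a group 5.74). The treatment ends at stage 25 by the labels, and the paper's text names other stages in places.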

Additional observations from a re-analysis of the deposited data

Results flagged for a closer look

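In 6 members every replicate number moved one way in one contrast and the opposite way in the other, and the difference between the contrasts was tested as an interaction. The share of all genes with such a pattern was not counted, so the 6 are not a result about the members. For large against small groups, col5a2.S, which encodes a type V collagen chain, had a log2 value of 0.66 in untreated embryos and -0.30 under thioridazine, an interaction of -0.96 (standard error 0.62). col14a1.S, the gene of a collagen on the surface of fibrils, had 0.37 and -0.55 for group size, and 0.27 and -0.65 for thioridazine in small and large groups, an interaction of -0.92 (standard error 2.04). For thioridazine against untreated, lamb3.S, which encodes a laminin chain, had -0.84 in small groups and 0.73 in large groups, an interaction of 1.57 (standard error 0.83). The remaining values are in the same order. col5a3.S had 0.73 and -1.57 (interaction -2.30, standard error 2.58), lamb4.L 0.31 and -0.52 (interaction -0.83, standard error 1.53) and col12a1.S 0.12 and -0.73 (interaction -0.85, standard error 1.26). None passed over all genes: each adjusted p was 1 by edgeR's quasi-likelihood test and 0.810 to 0.964 with the replicate block. These standard errors are from the fit without the block and include the differences between replicate numbers, so they are not those of the paired differences. The contrasts were picked among those of 58 members, and col14a1.S, col5a3.S and col12a1.S had few counts outside the libraries numbered 1.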

How the results depend on the processing

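With the replicate block, which the pairing of the replicate numbers calls for, the group comparisons again called 0 members, and the block changed no call of a member. Leaving out 1 library, in the fit without the block, kept 0 members in each of these comparisons. Without the libraries numbered 1 the block called 5 members for group size in untreated embryos and 7 on average over treatments. The 35 members that differed by replicate number were 29 to 38 when 1 library was left out, 23 in untreated libraries alone and 22 in thioridazine-treated libraries alone, where fewer samples were fitted. In the fit of all 12 libraries 39.7% of all genes passed. The share in these refits is not given here, so their counts do not show how the members compare with other genes. Of the 35, 26 were among the 47 members that passed the filter on numbers 2 and 3 alone. With 2 surrogate variables and the block in limma voom, col5a2.L reversed to -0.120 for group size in untreated embryos and to -0.0426 on average. In untreated libraries alone fn1.S (-0.0831) and fbln1.L (-0.0304) reversed for numbers 2 and 3 against 1. Leaving out 1 library gave ranges that cross 0 in 6 values: nid1.S for group size in untreated embryos (-0.337 to 1.21), col5a1.S for thioridazine in small groups (-0.538 to 0.0367), col27a1.L for thioridazine in large groups (-0.00218 to 0.721), col24a1.L for thioridazine on average (-0.0289 to 0.206), and fn1.S (-0.0939 to 0.420) and fbln1.L (-0.0502 to 0.131) for numbers 2 and 3 against 1. The ranges of the group comparisons are from the fit without the block. There, leaving out 1 library also left the replicate numbers unequal between groups. The cause of these changes was not tested. Without untreated small replicate 1, nid2.L (0.55) and fn1.S (0.42) passed as higher in numbers 2 and 3, and col2a1.L (-0.38) and col5a2.L (-0.33) no longer passed. Without thioridazine large replicate 1, col18a1.L (-0.60) passed. Members with few counts, such as nid1.L, lama4.L and both copies of col12a1, are limited by depth.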
